A study of Mus musculus with 4 samples.

Results

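The genes described here are the replication-dependent histone genes of the mouse, the clustered genes that supply the core histones H2A, H2B, H3 and H4 and the linker histone H1. They were taken from a table of 54532 genes as every row whose symbol begins with Hist1h, Hist2h, Hist3h or Hist4h. Of 70 such rows, 3 pseudogenes were left out and 67 genes remained. By cluster, 54 were in Hist1 on chromosome 13, 10 in Hist2 on chromosome 3, 2 in Hist3 on chromosome 11, and Hist4h4 lay alone on chromosome 6. By class, 6 encoded H1, 18 H2A, 18 H2B, 12 H3 and 13 H4.

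RNA was sequenced from bone marrow mesenchymal stem cells (BMSCs), stromal progenitors able to give rise to bone, cartilage and fat. The rhebCKO group held 2 mice of genotype Ucp1-cre; rhebFL/FL, in which the Cre recombinase is expressed from the promoter of Ucp1, a gene of brown adipocytes, and is meant to delete Rheb there. The control group held 2 littermates of genotype rhebFL/FL, which carry the same floxed alleles without Cre. All 4 mice were C57BL/6J, 1 month old and labelled male. Rheb is the small GTPase that switches on mTORC1, the growth-controlling kinase complex, and the comparison sets marrow cells of mice meant to lack it in brown fat beside those of their littermates. The sources used here do not give the isolation or culture of the cells.

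Total counts were 17476868 and 17425669 in the rhebCKO libraries and 18776563 and 19001878 in the control libraries. Rheb itself was not lower in the rhebCKO libraries (log2 fold change 0.55 ± 0.19 SE; edgeR adjusted p = 1.00). Since Cre is driven by a promoter of brown adipocytes, the level of Rheb in marrow cells does not check the deletion. The labels and the reads disagreed on sex: Xist, which coats the silenced X of female cells, was counted 31103 times in rhebCKO replicate 1 and 19502 in control replicate 1, against 2 in rhebCKO replicate 2 and 8 in control replicate 2. The Y-linked gene Ddx3y had 0 counts in replicate 1 of both groups. It had 1631 in rhebCKO replicate 2 and 1945 in control replicate 2. By these reads replicate 1 looked female and replicate 2 male in both groups. Each group thus held 1 library of each kind. Differences within replicate 1 and within replicate 2, the pair that matched the label, are given beside the group differences. The 14 stromal markers were all detected (summed level 28840 and 29620 CPM in rhebCKO, 26900 and 40070 CPM in control), and so were the 12 macrophage markers (9251 and 11600 CPM in rhebCKO, 11970 and 8508 CPM in control). Neutrophil markers summed to 2034 and 2458 CPM in rhebCKO and 2931 and 999.5 CPM in control, and germ cell markers to 0.798 and 0.978 CPM in rhebCKO and 1.33 and 1.05 CPM in control. CPM are counts scaled to library size, with TMM factors.

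Replication-dependent histone genes are switched on as cells enter S phase, so that new DNA can be packed into nucleosomes, and are shut down when replication ends. Their mRNAs are unusual among those of animals: as a rule they have no introns and no poly(A) tail, and end just after a short stem-loop that is bound by the stem-loop binding protein Slbp and cut with the help of the U7 snRNP. Some of these genes can also make a longer mRNA with a poly(A) tail, which has been described mostly in cells that have stopped dividing. The TruSeq RNA v2 kit named in the labels is built to capture poly(A) RNA.

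The 3′ stem-loops are shown because the histone genes with the most reads differ in their annotated 3′ ends. The longest coding transcript of each gene in GENCODE M21 (mm10, GRCm38) was searched on its sense strand with the histone stem-loop consensus, which has 16 bases. It was found in 45 of 67 histone genes, against 0.288% of all genes with a coding transcript. Some of the 22 without a match are annotated as a bare coding region with no 3′ UTR to search, such as Hist1h4k (312 bases). A missing match therefore does not show that the gene lacks a stem-loop. The form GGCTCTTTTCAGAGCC was present in 25 of the 45, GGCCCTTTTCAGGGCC in 7 and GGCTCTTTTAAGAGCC in 6. Capitals mark the stem-loop in the following stretches of the 3′ UTR, 1 for each class, given 5′ to 3′ on the strand of the gene.
Hist1h1c (H1; chr13:23739505-23739534, plus strand): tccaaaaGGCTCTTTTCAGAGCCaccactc
Hist3h2a (H2A; chr11:58955165-58955194, plus strand): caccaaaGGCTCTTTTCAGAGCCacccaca
Hist1h2bg (H2B; chr13:23571836-23571865, plus strand): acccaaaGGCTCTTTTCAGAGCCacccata
Hist1h3d (H3; chr13:23576237-23576266, plus strand): ccccaaaGGCTCTTTTCAGAGCCacccccg
Hist1h4i (H4; chr13:22040959-22040988, minus strand): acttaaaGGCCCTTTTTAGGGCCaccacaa

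In all 5 of these genes the annotated transcript ran on past the stem-loop. A polyadenylation signal, AATAAA or ATTAAA, was present in the last 50 bases of 17 of the 67 histone transcripts, against 72.2% of all genes with a coding transcript. Bare coding regions, which have no annotated 3′ UTR, were counted among those without a signal. The signals of the 4 genes with the most reads among those 17 are shown with the hexamer in capitals.
Hist1h1c (chr13:23740330-23740359, plus strand): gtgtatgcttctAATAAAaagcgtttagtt
Hist2h2be (chr3:96223705-96223734, plus strand): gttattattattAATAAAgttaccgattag
Hist3h2a (chr11:58956785-58956814, plus strand): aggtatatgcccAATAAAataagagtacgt
Hist1h4i (chr13:22040639-22040668, minus strand): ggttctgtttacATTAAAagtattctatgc

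Histone reads were few and came mainly from 2 genes. All 67 genes together had 1586 and 1785 counts in the rhebCKO libraries and 2049 and 2349 counts in the control libraries, which was 0.00907% and 0.0102% of all counts in rhebCKO and 0.0109% and 0.0124% in control. Over the 4 libraries 12 genes had no read, 23 had 1 to 9 reads, 22 had 10 to 49 and 10 had 50 or more. A gene with no read in a library may still have up to 3 counts there, or 0.158 to 0.173 CPM. This limit and the intervals below cover counting error alone.

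Hist1h1c, which encodes the linker histone H1.2 (ENSMUSG00000036181; chromosome 13, 23738808 to 23740367), had 691 and 840 counts in rhebCKO and 885 and 1225 in control. Hist1h2bc, which encodes an H2B (ENSMUSG00000018102; chromosome 13, 23684199 to 23692908), had 544 and 554 counts in rhebCKO and 718 and 656 in control. Together they held 77.9% (95% exact interval 75.7 to 79.9) and 78.1% (76.1 to 80.0) of the histone counts in rhebCKO replicates 1 and 2, and 78.2% (76.4 to 80.0) and 80.1% (78.4 to 81.7) in control replicates 1 and 2. The intervals of all 4 libraries overlapped. Over the 4 libraries Hist1h1c had 3641 counts and Hist1h2bc 2472, and the next gene, Hist2h2be, had 257.

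These 2 genes have unlike annotated 3′ ends. The single exon of Hist1h1c reads through its stem-loop and on for 840 bases, with the AATAAA shown above 20 bases before its end. Hist1h2bc is 1 of only 5 histone genes of the 67 whose transcript had more than 1 exon. Its first exon stops 9 bases after the stop codon and is joined across an intron of 7554 bases to a second exon that is all 3′ UTR. No stem-loop match was present in this spliced transcript, and no AATAAA or ATTAAA in its last 50 bases.

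Counts of the histone genes differed by annotated end. The 23 genes whose transcript ran on for more than 100 bases after the stem-loop had a median of 23 counts and held 60.9% of all histone counts, or 14.0% without Hist1h1c. The 22 genes annotated to end within 100 bases of the stem-loop had a median of 4 counts, 31 at most, and held 2.42%. The 22 genes without a match had a median of 3.5 counts and held 36.7%, or 4.87% without Hist1h2bc. They are not a single type of 3′ end, since some are annotated only as a coding region. By the poly(A) signal, the 17 genes that had it held 59.0% of histone counts with a median of 23, and the 50 that lacked it held 41.0% with a median of 4. Shares overlapped between the groups for genes ending near the stem-loop, which held 2.90% and 2.13% of histone counts in rhebCKO and 2.05% and 2.64% in control. Per kilobase of exon the genes that ran on past the stem-loop lay closer to the other classes, which lay farther from each other. The median was 0.225 CPM per kilobase for genes that ran on past the stem-loop, whose median exon length was 1249 bases. It was 0.114 for those ending near it (483.5 bases) and 0.0562 for those without a match (408 bases). The highest gene ending near the stem-loop had 0.902 CPM per kilobase, and the highest run-on gene after Hist1h1c had 4.03. Annotated transcripts are themselves drawn partly from sequenced cDNA, so annotation and reads are not independent. Sequence shared with other genes also differed by annotated end. For genes ending near the stem-loop, 38.6% to 100% of the 50-base windows also occurred in other genes. The range was 0% to 100% for genes that ran on past it, most of which lay below 38.6%. Genes with much shared sequence may be counted too low. Whether poly(A) capture or shared sequence sets these levels was not tested.

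**Figure D1:**
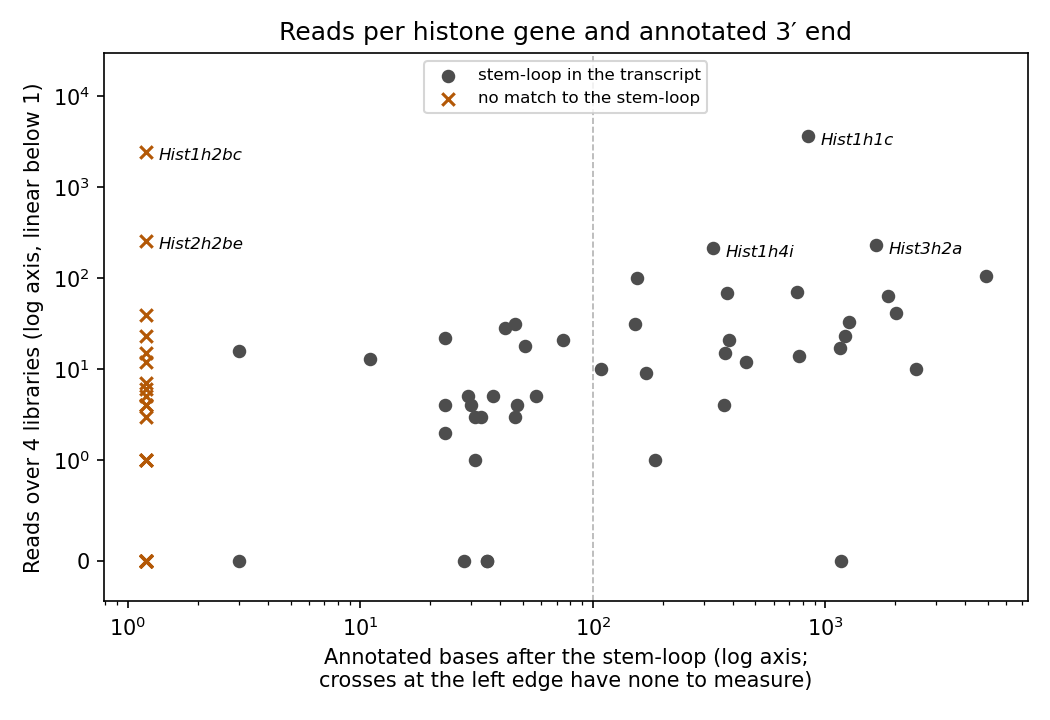
Reads summed over the 4 libraries (vertical, log axis that is linear below 1) for each of the 67 histone genes against the annotated bases after its stem-loop (horizontal, log axis); crosses at the left edge are the 22 genes without a stem-loop match, several of which overlie each other, and the dashed line marks 100 bases. The genes left of the line stay at or below 31 reads, while Hist1h1c, Hist3h2a and Hist1h4i stand to its right and Hist1h2bc and Hist2h2be among the crosses.

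Near-identical copies limit the reading of single genes. In 32 of the 67 genes, more than 50% of the 50-base windows of the transcript also occurred in transcripts of other genes. The sources used here do not say how reads with several matches were assigned, so genes of this kind may be counted too low or in the wrong place. The share of such windows was 8.54% for Hist1h1c, 30.1% for Hist1h2bc, 0% for Hist2h2be, 31.5% for Hist3h2a and 28.9% for Hist1h4i, but 63.5% for Hist2h3c2 and 71.5% for Hist1h4k. Reads from a stretch shared by overlapping genes cannot be told apart on either strand, since the kit does not mark strand. Exons of 24 of the 67 genes overlapped another gene, among them Hist3h2a with Trim17, and Hist1h2be with Hist1h1e, both on the same strand.

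Set against gene length, Hist1h1c had 32.0 and Hist1h2bc 29.3 CPM per kilobase of exon on average over the 4 libraries. Hist1h4i followed with 4.03, Hist1h2bg with 2.20, Hist1h4k with 1.74, Hist3h2a with 1.47 and Hist2h2be with 1.35 CPM per kilobase. The ranges of the first pair over the libraries overlapped, and the other 65 genes were each under 5 CPM per kilobase. Annotated lengths ran from a bare coding region of 312 bases in Hist1h4k to 7425 bases in Hist1h1d, so the order below the first pair depends on how far each 3′ end is drawn. Of the 11 variant histone genes outside the clusters, which make polyadenylated mRNA, 4 stood above Hist1h1c in CPM per kilobase: H3f3b (138.9) and H3f3a (38.3), which encode H3.3, H2afz (H2A.Z, 101.8) and H1f0 (H1.0, 61.0). The other 7 stood below Hist1h2bc, from 4.73 for H1fx to 27.7 for H2afx.

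The summed level of the 67 genes was lower in both rhebCKO libraries than in either control library. It was 90.5 and 102.7 CPM in rhebCKO replicates 1 and 2, against 109.3 and 123.5 CPM in control replicates 1 and 2. The means were 96.6 ± 8.68 CPM in rhebCKO and 116.4 ± 10.1 CPM in control (SD, n = 2 each), a ratio of 0.830. In log2 terms the difference was -0.27, with -0.27 within replicate 1 and -0.27 within replicate 2. It ran from -0.36 without control replicate 1 to -0.16 without control replicate 2, and in both groups replicate 2 stood above replicate 1. No test was made of the sum, since an exact two-sided permutation test of 2 libraries against 2 cannot go below p = 0.333. Markers of B cells moved with the groups in the same direction. The 10 listed genes summed to 203.7 and 110.2 CPM in rhebCKO and 734.2 and 324.4 CPM in control, 8 of 8 tested were lower in rhebCKO by value, and none was at 0 in all libraries. Their part in the histone difference was not tested, and in bulk RNA fewer cells of a type and less RNA per cell cannot be told apart.

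No histone gene passed the test of the groups. edgeR's quasi-likelihood test over 14963 genes, with Benjamini-Hochberg adjustment at 0.05, called 0 of the 12 histone genes with enough reads to be tested, where 0% of all genes tested were called. At an unadjusted p under 0.05 it also had 0 of the 12, where 1.86% of all genes tested (278) had such a p. DESeq2 and limma-voom also called 0 of the 12, where DESeq2 called 0.154% of all genes tested (23) and limma-voom 0%. With 1 control library left out, edgeR called 196 genes (replicate 1 out) or 66 (replicate 2 out). The spread then comes from the rhebCKO pair, and the lone control library is assumed to vary like it. That pair holds both kinds of library by Xist and the lone control only 1, so the groups are then unbalanced in kind. The log2 fold changes of the 12 ran from -1.04 to 0.94, and 8 of 12 were below 0, where 51.2% of all genes tested were. Their median was -0.21, beside -0.01 for all genes tested. The groups did not overlap, with rhebCKO lower, for 3 of the 12, where this held for 11.3% of all genes tested. They did not overlap with rhebCKO higher for 0 of the 12, where this held for 10.8%. Of the 3, Hist2h3c2 would not have passed the filter on low counts by its rhebCKO libraries alone, which favours a lower value there. It is also among the 8 below 0 and in the median. The median differed between the replicate numbers, at 0.02 within replicate 1 and -0.41 within replicate 2, and ran from -0.45 without control replicate 1 to -0.09 without control replicate 2.

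**Figure D2:**
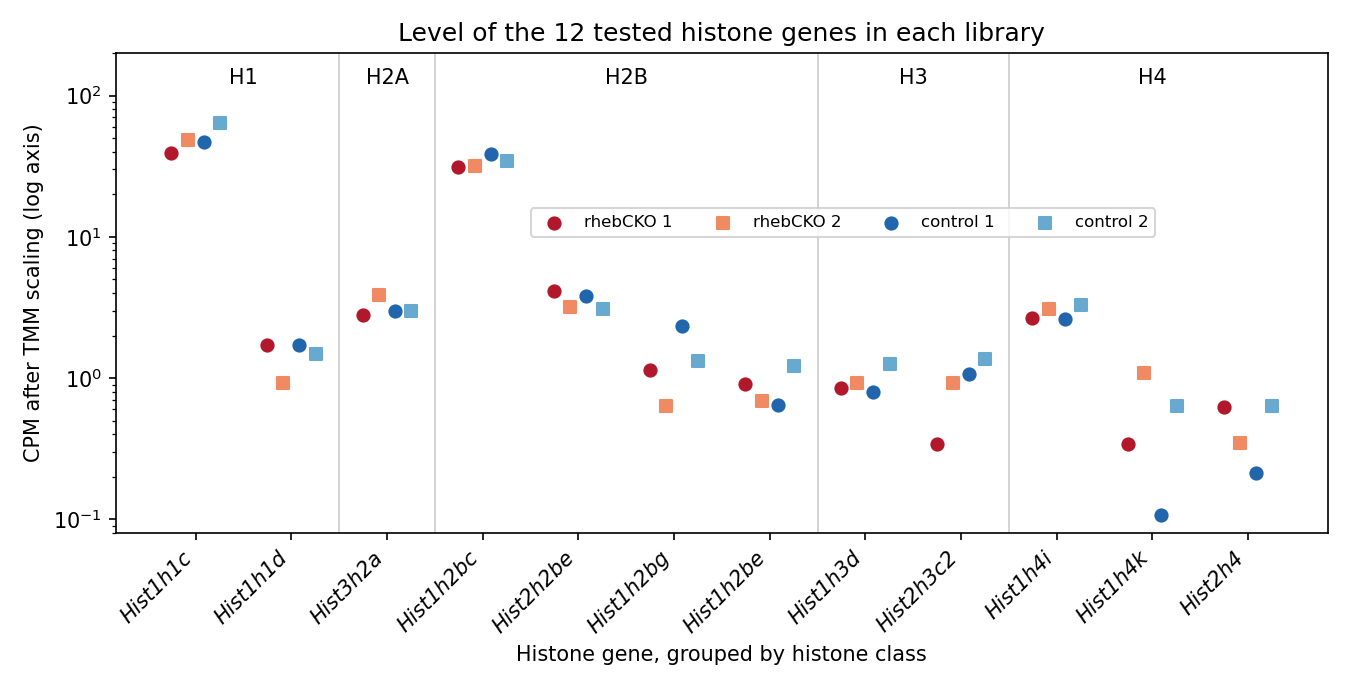
Level of the 12 tested histone genes (horizontal, grouped by class) in CPM after TMM scaling (vertical, log axis), with 1 point per library, rhebCKO in red and orange and control in blue. Hist1h1c and Hist1h2bc lie between 31.0 and 64.4 CPM in every library, and the other 10 lie at or below 4.11 CPM.

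Linker histone genes, whose proteins bind the DNA between nucleosomes, were carried by Hist1h1c. It had 39.4 and 48.3 CPM in rhebCKO and 47.2 and 64.4 CPM in control. The groups overlapped, since rhebCKO replicate 2 stood above control replicate 1. The fitted log2 difference was -0.35 ± 0.24 (SE; edgeR adjusted p = 1.00), with -0.26 within replicate 1 and -0.41 within replicate 2. Hist1h1d, which encodes H1.3, had 1.71 and 0.921 CPM in rhebCKO and 1.71 and 1.47 CPM in control, and rhebCKO replicate 2 alone stood apart. The H1.4 gene Hist1h1e had 4 and 4 counts in rhebCKO and 5 and 4 in control, and the H1.5 gene Hist1h1b 0 and 5 in rhebCKO and 4 and 3 in control. Hist1h1a (H1.1) had 1 and 3 counts in rhebCKO and 0 and 0 in control, at or below the limit that a count of 0 allows. Hist1h1t, the linker histone of testis, had 1 count in all.

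H2B genes were carried by Hist1h2bc in the same way. It had 31.0 and 31.9 CPM in rhebCKO against 38.3 and 34.5 CPM in control, and the groups did not overlap. The means were 31.5 ± 0.605 CPM in rhebCKO and 36.4 ± 2.68 CPM in control (SD, n = 2 each). On the log2 scale the difference was -0.21 ± 0.22 (SE; edgeR adjusted p = 1.00). Hist1h2bg had 1.14 and 0.633 CPM in rhebCKO against 2.35 and 1.32 CPM in control, again without overlap, and had the smallest p of the 12. On the log2 scale the difference was -1.04 ± 0.56 (SE; edgeR adjusted p = 1.00, with an unadjusted edgeR p of 0.104). It rested on 20 and 11 counts in rhebCKO and 44 and 25 in control, and was -0.98 within replicate 1 and -0.95 within replicate 2. Hist2h2be did not differ by as much as its error (4.11 and 3.17 CPM in rhebCKO, 3.79 and 3.10 CPM in control, log2 fold change 0.08, SE 0.37). Hist1h2be had 0.912 and 0.691 CPM in rhebCKO and 0.640 and 1.21 CPM in control, with opposite signs within the replicate numbers (0.45 and -0.73). Hist1h2br, the fifth of the class, had 2 and 9 counts in rhebCKO and 11 and 1 in control.

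H2A genes were low in every library. Hist3h2a, the only one tested, had 2.79 and 3.86 CPM in rhebCKO and 2.986 and 2.998 CPM in control (log2 fold change 0.15 ± 0.39 SE; edgeR adjusted p = 1.00). The rhebCKO values lay on either side of the control values. Hist1h2ac had 7 and 7 counts in rhebCKO and 20 and 7 in control, Hist1h2ae 5 and 4 in rhebCKO and 17 and 5 in control, and control replicate 1 was the high library for each. Hist1h2ad had 7 and 1 counts in rhebCKO and 7 and 13 in control, and Hist1h2ab 4 and 0 in rhebCKO and 6 and 3 in control. Of the 18 H2A genes, 7 had no read, among them the testis gene Hist1h2aa and, in Hist2, Hist2h2aa1, Hist2h2aa2 and Hist2h2ab.

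Many H2A and H2B genes sit head to head and share the stretch between them as promoter. There were 12 such pairs with 175 to 305 bases between the gene models, and the H2B gene had more reads than its partner in 10 of them. Many of these counts are small, and genes on both sides share sequence with other genes, which limits this comparison. Reads were not set against length here, and lengths differ within pairs both ways. Hist2h2be has 2620 bases of exon and Hist2h2ac 520, while Hist1h2bc has 1156 and Hist1h2ac 2482. Hist1h2bc had 2472 counts over the 4 libraries, against 41 for Hist1h2ac on the other side of 250 bases. Hist1h2bg had 100 and Hist1h2ae 31. The whole stretch between Hist1h2ae and Hist1h2bg is printed because both genes had the most reads in control replicate 1 (17 for Hist1h2ae and 44 for Hist1h2bg). Hist1h2ae had only 4 or 5 counts in each other library, so its lowest library cannot be told. Capitals mark the CCAAT box (CCAAT or ATTGG), the octamer ATTTGCAT and the TATA box TATAAA.
Hist1h2ae to Hist1h2bg (chr13:23571221-23571395, GRCm38.p6, RefSeq, strand of Hist1h2bg): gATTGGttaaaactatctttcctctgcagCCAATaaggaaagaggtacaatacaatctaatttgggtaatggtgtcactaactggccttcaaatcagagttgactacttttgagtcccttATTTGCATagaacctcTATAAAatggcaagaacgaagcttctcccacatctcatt

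The motifs were counted upstream of the histone genes that had a promoter window. RefSeq promoter windows were matched for 62 of the 67 genes, and the 250 bases before the start were searched on both strands. Hist1h2bc and Hist2h2be, the H2B genes with the most reads, had no matched window, so the H2B shares leave them out. The octamer ATTTGCAT, the site of Oct-family factors in H2B promoters, was present in 6 of 16 H2B and 7 of 18 H2A windows, which overlap where genes are paired, and in 0 of 6 H1, 0 of 10 H3 and 0 of 12 H4 windows, against 1.60% of all windows. CCAAT was present in 82.3% of histone windows against 33.8% of all, but unevenly: in every H1, H2A and H2B window, in 8 of 10 H3 windows and in 3 of 12 H4 windows (25.0%), below the share of all windows. TATAAA was present in 46.8% against 12.4%, and in 38.9% to 66.7% of the windows of each class. A match describes these letters and is not a measured site.

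H3 and H4 genes encode the core pair on which each nucleosome is built. Hist1h3d had 0.856 and 0.921 CPM in rhebCKO and 0.80 and 1.26 CPM in control, and the groups overlapped. Hist2h3c2 had 0.342 and 0.921 CPM in rhebCKO against 1.07 and 1.37 CPM in control, the third gene without overlap (log2 fold change -0.94 ± 0.63 SE; edgeR adjusted p = 1.00). It had 6 and 16 counts in rhebCKO and 20 and 26 in control, and rhebCKO replicate 1 was the low library. Its control libraries alone would have carried it past the filter on low counts, and its rhebCKO libraries alone would not. Below the limit for testing, Hist1h3b had 2 and 3 counts in rhebCKO and 8 and 5 in control, Hist1h3c 7 and 2 in rhebCKO and 4 and 8 in control, and Hist1h3e 1 and 6 in rhebCKO and 4 and 4 in control.

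Among H4 genes, which encode identical or near-identical proteins, Hist1h4i led with 2.68 and 3.11 CPM in rhebCKO and 2.61 and 3.31 CPM in control. It was close to level between the groups (log2 fold change -0.03 ± 0.39 SE; edgeR adjusted p = 1.00). Hist1h4k had 0.342 and 1.09 CPM in rhebCKO and 0.107 and 0.631 CPM in control, and Hist2h4 0.627 and 0.345 CPM in rhebCKO and 0.213 and 0.631 CPM in control. Their log2 fold changes were 0.94 (SE 0.91) and 0.20 (SE 0.77), and in each the groups overlapped. Together with Hist3h2a these had the smallest p among the genes with higher values in rhebCKO (0.333 for Hist1h4k, 0.802 for Hist2h4 and 0.704 for Hist3h2a, unadjusted, by edgeR). Hist1h4h had 4 and 9 counts in rhebCKO and 5 and 13 in control, and Hist1h4j 3 and 5 in rhebCKO and 8 and 5 in control.

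**Figure D3:**
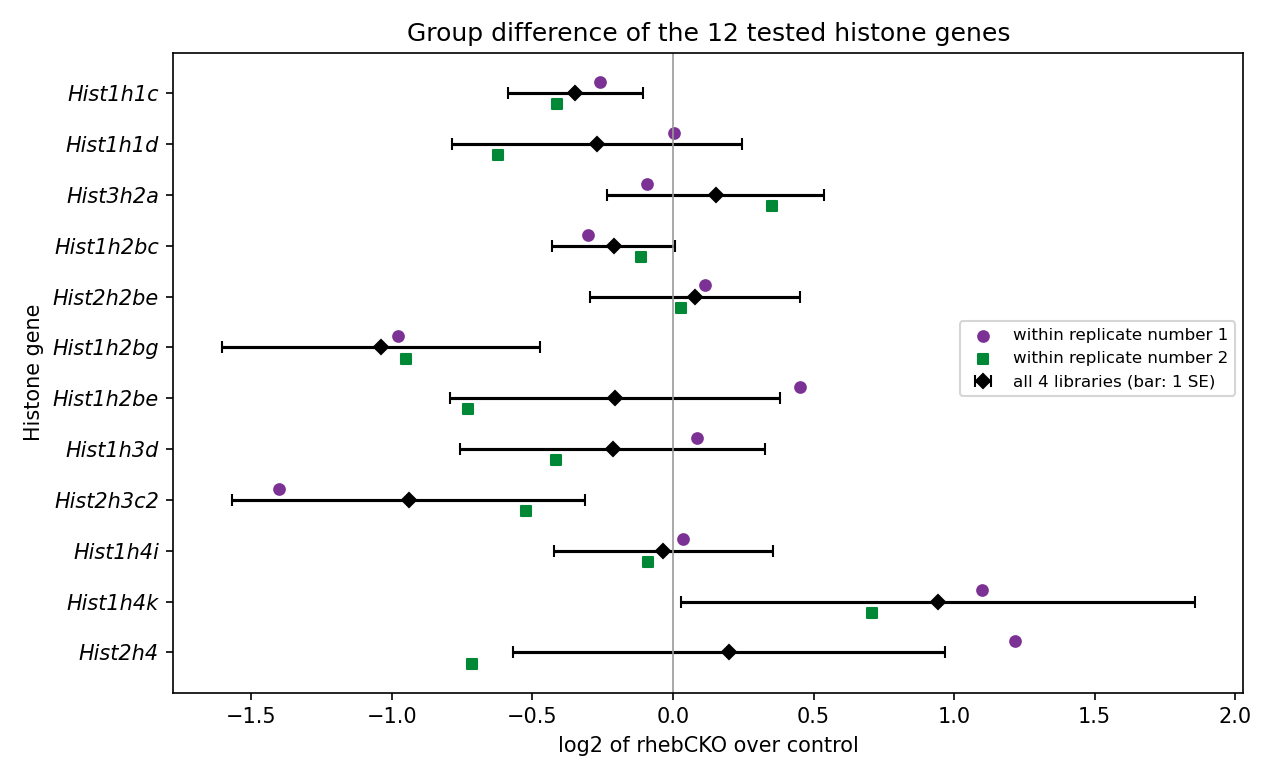
Log2 ratio of rhebCKO over control (horizontal) for the 12 tested histone genes (vertical), as fitted over all 4 libraries (black diamonds, bars of 1 SE) and between single libraries within replicate 1 (purple circles) and within replicate 2 (green squares). Hist1h1c, Hist1h2bc, Hist1h2bg and Hist2h3c2 lie below 0 in all 3 values, and Hist2h2be and Hist1h4k lie above 0 in all 3. Hist3h2a, Hist1h4i, Hist1h1d, Hist1h3d, Hist1h2be and Hist2h4 lie on opposite sides of 0 in the 2 replicate numbers.

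Summed by class, the groups did not overlap for H2B, H2A and H3, and overlapped for H1 and H4. H1 genes had 41.4 and 50.01 CPM in rhebCKO and 49.4 and 66.3 CPM in control. H2B genes had 38.4 and 38.7 CPM in rhebCKO and 46.9 and 41.6 CPM in control, but without Hist1h2bc the groups overlapped (7.41 and 6.79 CPM in rhebCKO, 8.59 and 7.10 CPM in control). H2A genes had 4.16 and 4.78 CPM in rhebCKO and 5.71 and 4.84 CPM in control, and H3 genes 1.77 and 2.88 CPM in rhebCKO and 2.933 and 3.997 CPM in control. In both classes the gap between the groups is small against the counting error of such counts. The nearest H2A libraries had 83 and 92 counts, and the nearest H3 libraries 50 and 55. H4 genes divided by replicate number and not by group, with 4.68 and 6.39 CPM in rhebCKO and 4.37 and 6.84 CPM in control. The H4 ratio of 0.987 was the closest to 1 of the 5 classes, and the H3 ratio of 0.670 the farthest. The H3 sum rested on 31 and 50 counts in rhebCKO and 55 and 76 in control. Differences between classes were not tested.

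**Figure D4:**
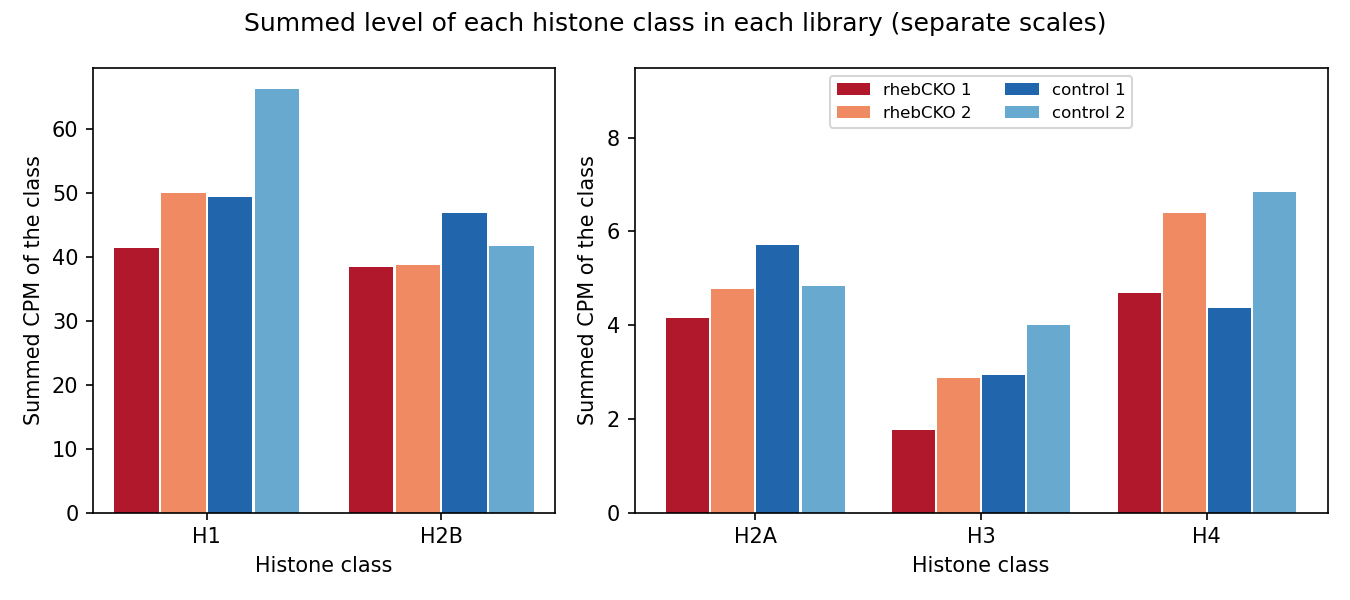
Summed CPM of each histone class (horizontal) in the 4 libraries, with H1 and H2B on one scale (left, up to 66.3 CPM) and H2A, H3 and H4 on another (right, up to 6.84 CPM). Bars are single libraries without error bars, rhebCKO in red and orange and control in blue, and in H1, H3 and H4 replicate 2 stands above replicate 1 in both groups.

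The 55 histone genes with too few reads to be tested summed to 4.51 and 6.85 CPM in rhebCKO and 7.52 and 7.31 CPM in control. The sum was lower in rhebCKO, mostly in rhebCKO replicate 1 (log2 ratio -0.74 within replicate 1 and -0.09 within replicate 2). Of the 43 with a read, the groups did not overlap with rhebCKO lower for 3 (Hist1h3b, Hist1h4c and Hist1h3a), or 6.98%, where this held for 8.47% of all untested genes with a read. They did not overlap with rhebCKO higher for 4 (Hist1h2bj, Hist1h1a, Hist1h2bk and Hist1h2bm), or 9.30%, where this held for 15.7%. Neither share stood above that of all such genes. These had at most 22 counts over the 4 libraries. A difference in single genes of this kind was not detectable at this depth.

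Genes that make, carry and use histones were set beside them. Variant histone genes outside the clusters had 11 of 11 tested and 0 called by edgeR, with 4 log2 fold changes above 0 and 7 below and a median of -0.12. H2afx, whose protein H2A.X is phosphorylated at DNA breaks, had 40.5 and 45.6 CPM in rhebCKO against 32.1 and 34.9 CPM in control (log2 fold change 0.36, SE 0.22). The groups did not overlap, and the direction was opposite to that of the clustered sum. H3f3b had 378.2 and 393.7 CPM in rhebCKO against 422.3 and 459.8 CPM in control (-0.19, SE 0.22). The linker histone genes H1fx and H1f0 had log2 fold changes of -0.72 (SE 0.44; 0.01 without control replicate 2) and -0.31 (SE 0.23; -0.04 without control replicate 2) with overlapping groups, while Cenpa, the centromeric H3, stood at 0.33 (SE 0.24) and H2afz at 0.05 (SE 0.26).

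The machinery of histone mRNA 3′ ends was close to level. Of 20 genes tested, 0 were called by edgeR, 11 log2 fold changes were above 0 and 9 below, and the median was 0.01. Slbp had 48.99 and 41.32 CPM in rhebCKO and 53.1 and 43.6 CPM in control (log2 fold change -0.10, SE 0.22). Npat, the coactivator that cyclin E and Cdk2 act on at histone clusters, had 47.1 and 31.2 CPM in rhebCKO and 39.4 and 29.8 CPM in control (0.18, SE 0.28). The 4 smallest p-values of the list belonged to Zfp473 (log2 fold change -0.42, SE 0.55), whose human counterpart binds the U7 snRNP, Npat, the cleavage factor gene Cstf2 (0.15, SE 0.23) and Casp8ap2 (0.13, SE 0.26), which encodes the histone processing factor FLASH. Histone chaperones, which hand histones to DNA, had 13 of 20 log2 fold changes above 0, a median of 0.03 and 0 calls. Chaf1a, of the replication-coupled chaperone CAF-1, had 23.5 and 25.0 CPM in rhebCKO against 17.5 and 19.6 CPM in control (0.39, SE 0.24), without overlap. Atrx, which helps place H3.3, had 0.26 (SE 0.25), Asf1b, a chaperone of H3 and H4, 0.26 (SE 0.34), and Hjurp, the chaperone of Cenpa, 0.20 (SE 0.20).

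DNA replication and mitosis genes had medians above 0, where that of the clustered histone genes was below 0. Of 30 S phase genes tested, 24 log2 fold changes were above 0, the median was 0.17 and 0 were called by edgeR. Within replicate 1 the median was 0.04 and within replicate 2 it was 0.36, and with 1 control library left out it was 0.01 (replicate 2 out) or 0.37 (replicate 1 out). The summed levels overlapped, at 1340 and 1245 CPM in rhebCKO and 1346 and 1010 CPM in control, the last being the lowest library. Cdc6, which loads the replicative helicase, had 0.57 (SE 0.33), the helicase gene Mcm5 0.39 (SE 0.21), the DNA polymerase gene Pole 0.35 (SE 0.25) and the ligase gene Lig1 0.33 (SE 0.24). With 1 library left out Cdc6 ran from 0.23 to 1.02, Mcm5 from 0.29 to 0.50, Pole from 0.16 to 0.58 and Lig1 from 0.17 to 0.53, and the low end of Cdc6, Pole and Lig1 came without control replicate 2. Of 18 mitosis genes, 17 were above 0 with a median of 0.21 and 0 calls, among them Mki67 (0.52, SE 0.30), Aurkb (0.42, SE 0.25), Cenpe (0.39, SE 0.27) and Bub1b (0.37, SE 0.26). The mitosis median was 0.07 within replicate 1 and 0.43 within replicate 2. With 1 library left out Mki67 ran from 0.22 to 0.92, Aurkb from 0.30 to 0.56, Cenpe from 0.11 to 0.70 and Bub1b from 0.11 to 0.71. Replicate number also went the other way: histone sums were higher in replicate 2 than in replicate 1 of both groups, and S phase and mitosis sums were lower. Replicate number and sex by Xist cannot be told apart here. The difference between the histone genes and these lists was not tested.

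**Figure D5:**
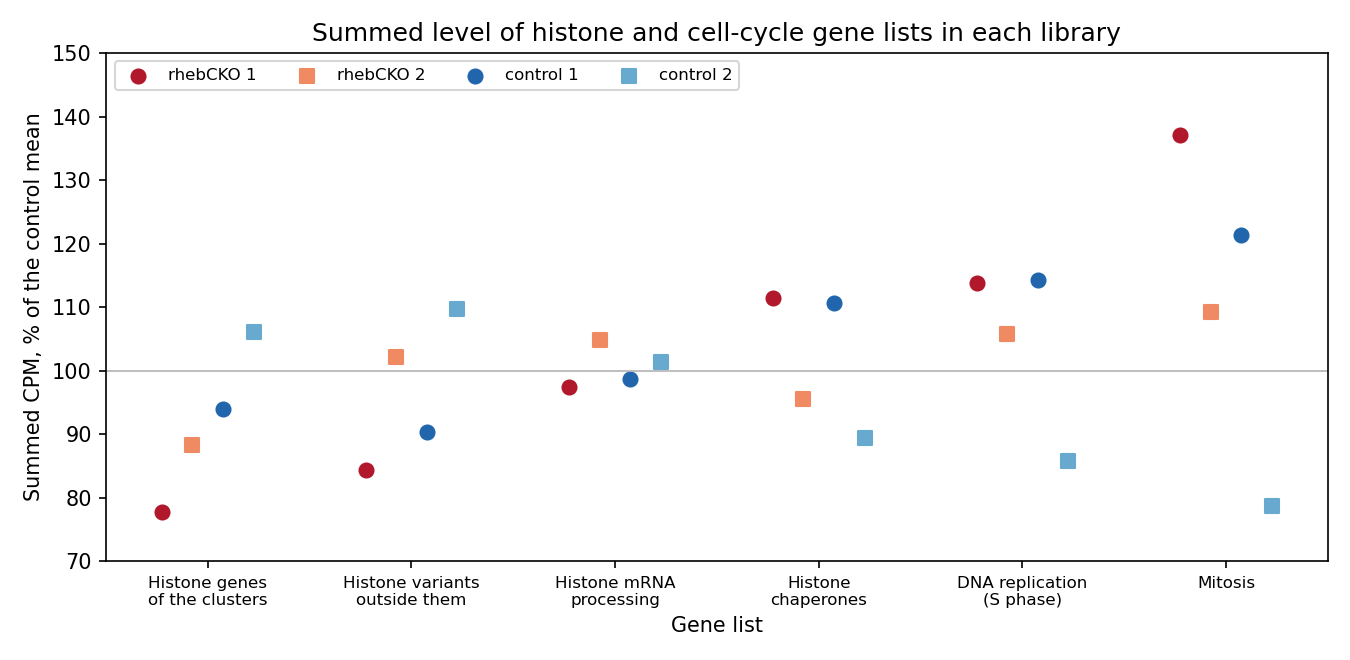
Summed CPM of 6 gene lists (horizontal) in each library as a percentage of the mean of the control libraries (vertical, from 70), with rhebCKO in red and orange and control in blue. The clustered histone genes stood at 77.7% and 88.2% in rhebCKO and 93.9% and 106.1% in control, while mitosis genes stood at 137.1% and 109.2% in rhebCKO and 121.4% and 78.6% in control.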

How the data were processed

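The deposited file holds whole-number read counts per gene made by the authors, with coordinates and exon length. Trimmomatic, HISAT2, featureCounts and mm10 stand in the submitters' processing notes with no version. Of the table's gene IDs, 54495 were found in GENCODE M21, 98.3% of them with the same coordinates, as were all 67 histone genes. Group and replicate number came from the sample titles. Nothing in the labels says more of the replicates than that the mice were separate, so p-values measure the spread between 2 libraries per group. In each group these 2 libraries differed in Xist, so SDs, SEs and p-values also hold any difference between the 2 kinds. No 2 libraries agreed within sampling noise (chi-square per degree of freedom 17.4 to 67.2). The closest pair was rhebCKO replicate 1 with control replicate 1 (17.4). The least alike pair was the 2 control libraries (67.2), and the 2 rhebCKO libraries stood at 44.1.

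The deposited counts went unchanged into edgeR 4.0.16 (R 4.3.3), with filterByExpr, TMM factors and a quasi-likelihood F-test on the group term. Standard errors were derived from the fold change and its F value. Single-library log2 ratios used CPM + 0.1. Each of the 12 histone genes that passed the filter had a library over its limit of 0.552 CPM in both groups, but for 1 of them, Hist2h3c2, only the control libraries would have been enough. Total counts ran from 17425669 to 19001878. The fit was also run on simulated counts, with a bound on the median fitted log2 fold change, and the outcome is not reported here.

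The histone genes and the gene lists were chosen with earlier results of these data known. Values per library are given for the 5 highest genes of each class and the 3 smallest p in each direction. For the variant, processing, chaperone, S phase and mitosis lists, genes named are the 4 with the smallest p, with Slbp, Npat, H2afx, H2afz and H3f3b. Other genes were named after their values were seen. Alternatives were other scaling and filters, DESeq2 1.42.0, limma-voom (limma 3.58.1), a replicate block, leaving out each library, single replicate numbers and removal of a length trend. Figures used matplotlib 3.10.9.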

Additional observations from a re-analysis of the deposited data

How the results depend on the processing

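Over the alternatives run, 0 histone genes were called in each. Over all genes, edgeR called 0 with all libraries, DESeq2 called 23 and edgeR without 1 library between 0 and 196, the highest without control replicate 1 and 66 without control replicate 2. With a library left out, the lone library is assumed to vary like the other group, and Xist is no longer balanced between the groups. The median log2 fold change of the tested histone genes ran from -0.45 to -0.0901 with 1 library left out (lowest without control replicate 1, highest without control replicate 2), and was 0.0195 within replicate number 1 and -0.41 within replicate number 2. The log2 ratio of the summed histone CPM kept its sign throughout, from -0.36 without control replicate 1 to -0.16 without control replicate 2, and was -0.20 without Hist1h1c. In a sum over genes with under 50% of windows shared, chosen after seeing the data, it was -0.27. The S phase median ran from 0.01 without control replicate 2 to 0.37 without control replicate 1. The cause of these shifts was not tested. With a replicate block, edgeR again called 0 of 14963 genes, and the histone median was -0.18 and the mean log2 ratio of the sums -0.27. The numbers share no stated origin, but in both groups Xist was high in replicate 1 and low in replicate 2. The differences between replicates 1 and 2 correlated between the groups over genes (r = 0.245). The part of sex in this was not tested.

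With 1 library left out, log2 fold changes changed sign for Hist2h2be (-0.13 to 0.27), Hist3h2a (-0.0832 to 0.36), Hist1h4i (-0.20 to 0.16), Hist1h1d (-0.79 to 0.12), Hist1h3d (-0.51 to 0.16), Hist1h2be (-0.60 to 0.34), Hist1h4k (-0.0947 to 2.69) and Hist2h4 (-0.38 to 1.18). The same held for Slbp (-0.23 to 0.0416), Npat (-0.15 to 0.46), Casp8ap2 (-0.19 to 0.40), Cstf2 (-0.0187 to 0.34), Atrx (-0.0542 to 0.53), Asf1b (-0.10 to 0.77), H1fx (-1.20 to 0.0095) and H2afz (-0.27 to 0.31). Hist1h1c ran from -0.56 to -0.09, Hist1h2bc from -0.27 to -0.14, Hist1h2bg from -1.53 to -0.57 and Hist2h3c2 from -1.80 to -0.41. Zfp473 ran from -0.81 to -0.10, H1f0 from -0.53 to -0.0353 and Cenpa from 0.13 to 0.56. Depth limits the rest: 55 histone genes had too few reads to be tested.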
